A study of Ovis aries with 48 samples.

Results

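The 51 small nuclear RNA (snRNA) rows described here are those with a mean of at least 2 normalised reads over the 32 libraries of a testosterone cohort and also over the 16 libraries of a bisphenol A cohort of sheep. They are 51 of the 1148 snRNA rows listed, of which 415 had a read in any library, and 51 of 4920 rows over all 4 RNA classes measured. The rule left out by name LOC114117093, LOC114117060, LOC114115462, LOC114111395 and LOC114111412, which would have made 56. Just inside the limit lay LOC114109153 (means of 2.35 and 2.10 in the testosterone and the bisphenol A cohort), LOC114116243 and LOC114116244 (both 2.46 and 2.15). Just outside lay LOC114111087 (1.59 and 3.77), LOC114111406 (1.82 and 1.55) and LOC114115956 (1.34 and 2.83). The rows were thus chosen by their mean normalised reads, and levels are given as a description.

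Most small nuclear RNAs are short, uridine-rich RNAs that work with proteins in the nucleus, above all as the parts of the spliceosome that recognise the ends of introns and bring them together. Others mature the ends of histone messenger RNAs or hold back the factor that releases RNA polymerase from its pause. Their genes occur in animal genomes as families of near-identical copies, often in clusters, together with many pseudogenes, so that a short read can fit several of them. The table that pairs these rows with gene models gave no family names, and no row is assigned to a family here.

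Fat was taken from female sheep in 2 cohorts housed together on a maintenance diet, with 4 sheep in each of 12 groups. In the T cohort, subcutaneous, visceral, epicardial and perirenal fat came from 4 control sheep and from 4 sheep (prenatal T) whose mothers had received intramuscular testosterone propionate in corn oil, 100 mg per injection on 2 days a week, from day 30 to day 90 of gestation. In the BPA cohort, subcutaneous and visceral fat came from 4 controls whose mothers had received corn oil and from 4 sheep whose mothers had received bisphenol A subcutaneously at 0.5 mg per kg per day over the same days. Age at sampling, and what mothers of T cohort controls received, were not stated in the labels used here.

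The 48 libraries held 260804 to 1742991 reads of the 4 RNA classes (median 713221.5), of which snRNAs made up 0.0595% to 0.927%, or 667 to 10795 reads. The 51 rows took 514 to 5155 reads per library and 47.8% to 88.8% of the snRNA reads, and 33 of the 51 had a median under 10 reads in the T cohort. The perirenal library of control sheep 132 stood apart with 10795 snRNA reads. Library numbers in the labels fell into an early and a later set, which were uneven over the groups. Subcutaneous libraries of the T cohort were early in 7 of 8 cases, and epicardial ones later in 6 of 8. Bulk tissue was measured, so that fewer cells of a type and less RNA per cell cannot be told apart. Of the cell type markers listed among microRNAs, 1 of 7 of striated muscle (MIR133), 1 of 4 of leucocytes (MIR150), 3 of 7 of epithelium and mesothelium and 1 of 2 of smooth muscle (MIR143) were matched by symbol. None of 3 for red cells, nor the 1 for endothelium, was matched. No adipocyte marker was among these lists, so the label of the tissue as fat was not checked.

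The values were reads divided by 1 factor per library, and the 51 rows fell in a steep order. LOC114110196 had the highest mean (79.4 in the T and 123.3 in the BPA cohort), followed by LOC114117117 (61.7 and 104.3), LOC114117115 (61.6 and 104.2), LOC114117120 (61.2 and 103.9), LOC114117116 (60.8 and 102.5), LOC114117112 and LOC114117113 (60.6 and 102.2) and LOC114117114 (60.6 and 102.2). LOC114111388 (43.2 and 51.9) and LOC114111391 (43.1 and 52.4) completed the first 10. The values are not divided by length, so this is an order of reads and not of RNA molecules. A gap followed. The first 15 rows had means of at least 20 in both cohorts, and the next, LOC114117038, had 11.4 and 18.4. In all, 21 rows had a read in every one of the 48 libraries. The scales of the cohorts, and of the depots within a cohort, were set separately, so means are not compared between cohorts.

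**Figure D1:**
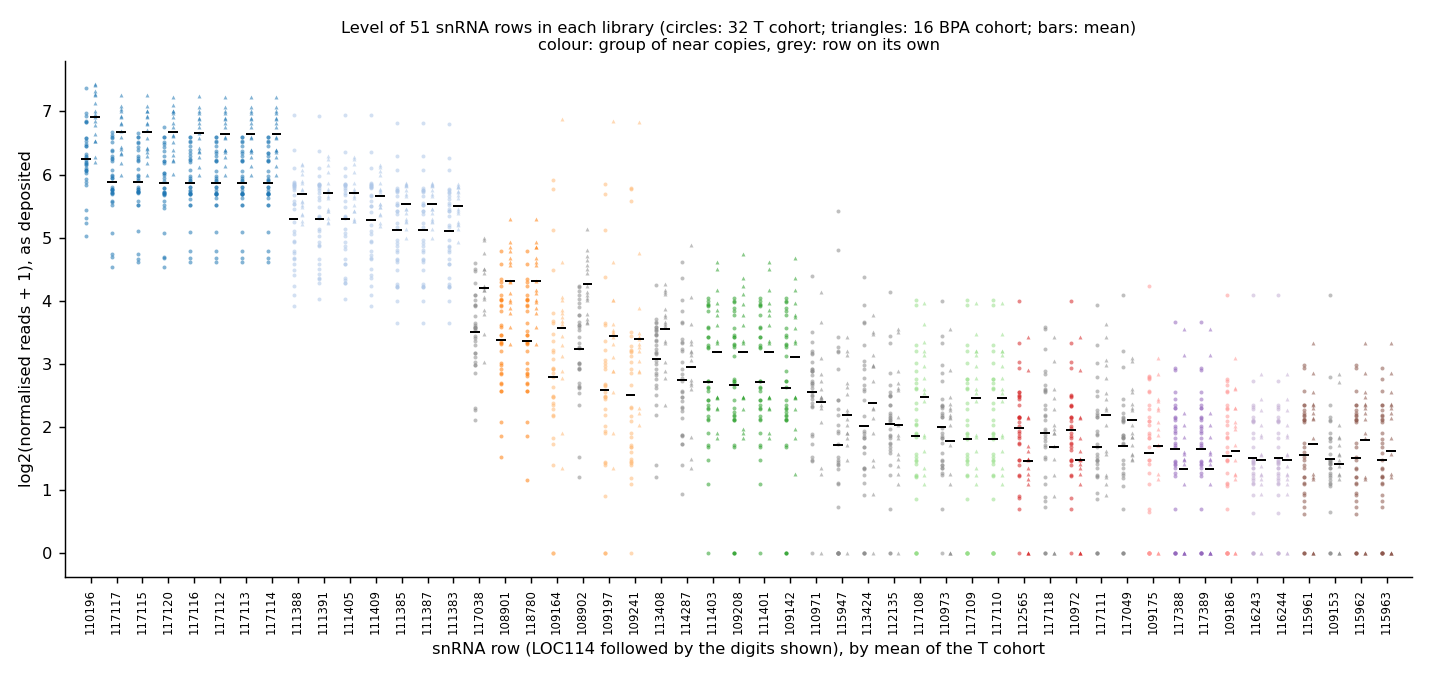
Levels of the 51 snRNA rows as log2(normalised reads + 1), 1 point per library (circles for 32 T cohort libraries, triangles for 16 BPA cohort libraries), with bars for the means and colours for groups of near copies. The first 15 rows, in 2 groups, lie above the rest, whose low values fall on few reads.

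Many of these rows did not carry separate measurements. Rows were grouped as near copies where their log2 values about the group means correlated with r of at least 0.9 in both cohorts (32 and 16 libraries), joined through any member. This gave 11 groups holding 38 rows, and 13 rows stood alone, so that 51 rows came to 24 patterns. Pairs within a group had a median r of 0.98 in each cohort (69 pairs, from 0.89 in the T and 0.82 in the BPA cohort), against -0.02 for the 1206 pairs of different groups in either cohort. The groups were formed by this same r, so the contrast is a description and no support for them. Rows that share reads, sequence or a library's composition would all give such a correlation, and the counting of reads that fit several rows was not described in the labels used here.

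The largest group held 8 rows, LOC114110196, LOC114117117, LOC114117115, LOC114117120, LOC114117116, LOC114117112, LOC114117113 and LOC114117114. The 6 of them matched in the RefSeq table of assembly ARS-UI_Ramb_v3.0 all had a gene model of 191 nucleotides. LOC114117117, LOC114117115, LOC114117120, LOC114117116 and LOC114117112 lay in 1 neighbourhood of 22 genes, which held 10 of the 51 rows, and LOC114110196 lay on another chromosome. In reads per library the 8 rows ran side by side. LOC114117117 had 17 to 142 reads in T cohort libraries and LOC114117115 had 18 to 143, whereas LOC114110196 had 28 to 196. The 3 rows of smallest spread within groups were all of this group, LOC114117114, LOC114117112 and LOC114117113 (coefficient of variation 0.23 for each, against 0.12 from counting alone).

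The next group held 7 rows, LOC114111388, LOC114111391, LOC114111405, LOC114111409, LOC114111385, LOC114111387 and LOC114111383, of 163 to 164 nucleotides in the 5 matched, on 1 chromosome. It had a finer division: LOC114111385, LOC114111387 and LOC114111383 had 9 to 415 reads in T cohort libraries and the other 4 rows had 11 to 454, and the lowest r between the 2 divisions was 0.90 in the T and 0.82 in the BPA cohort. Another group, of 164 nucleotides in the 3 rows matched, held LOC114111403, LOC114109208, LOC114111401 and LOC114109142.

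The small groups were 3 trios and 5 pairs. LOC114109164, LOC114109197 and LOC114109241, unmatched in the RefSeq table, formed a trio with 0 to 201 reads in T cohort libraries and up to 268 in the BPA cohort. The other trios were LOC114117108, LOC114117109 and LOC114117110 (191 nucleotides, inside the neighbourhood of the largest group but not correlated with it at the limit) and LOC114115961, LOC114115962 and LOC114115963 (116 nucleotides). The pairs were LOC114108901 with LOC114118780 (141 nucleotides, on 2 chromosomes), LOC114112565 with LOC114110972, LOC114117388 with LOC114117389 (116 nucleotides in the member matched of each), LOC114109175 with LOC114109186 and LOC114116243 with LOC114116244 (164 nucleotides in the member matched). In 5 cases rows were identical in reads in all 48 libraries: LOC114117112 and LOC114117113, LOC114111385 and LOC114111387, LOC114117109 and LOC114117110, LOC114117388 and LOC114117389, and LOC114116243 and LOC114116244. Each of these 5 pairs is 1 measurement printed on 2 rows.

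Gene neighbourhood and near copies did not map onto each other one to one. LOC114115947 (164 nucleotides) lies within 4 genes of LOC114115961 and LOC114115962 (116 nucleotides) and belonged to no group. LOC114108902 is a neighbour of LOC114108901 with the same model length of 141 nucleotides, and correlated with it at r = 0.93 in the T but 0.88 in the BPA cohort, below the limit. Only 37 of the 51 rows (72.5%) matched the RefSeq table, under 80%, so a check of model length over the whole list is void. The rows most like LOC114110196 over the 48 libraries, by r of log2 values as deposited, were LOC114117117, LOC114117115 and LOC114117120 (r = 0.96 each), all of its own group.

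**Figure D2:**
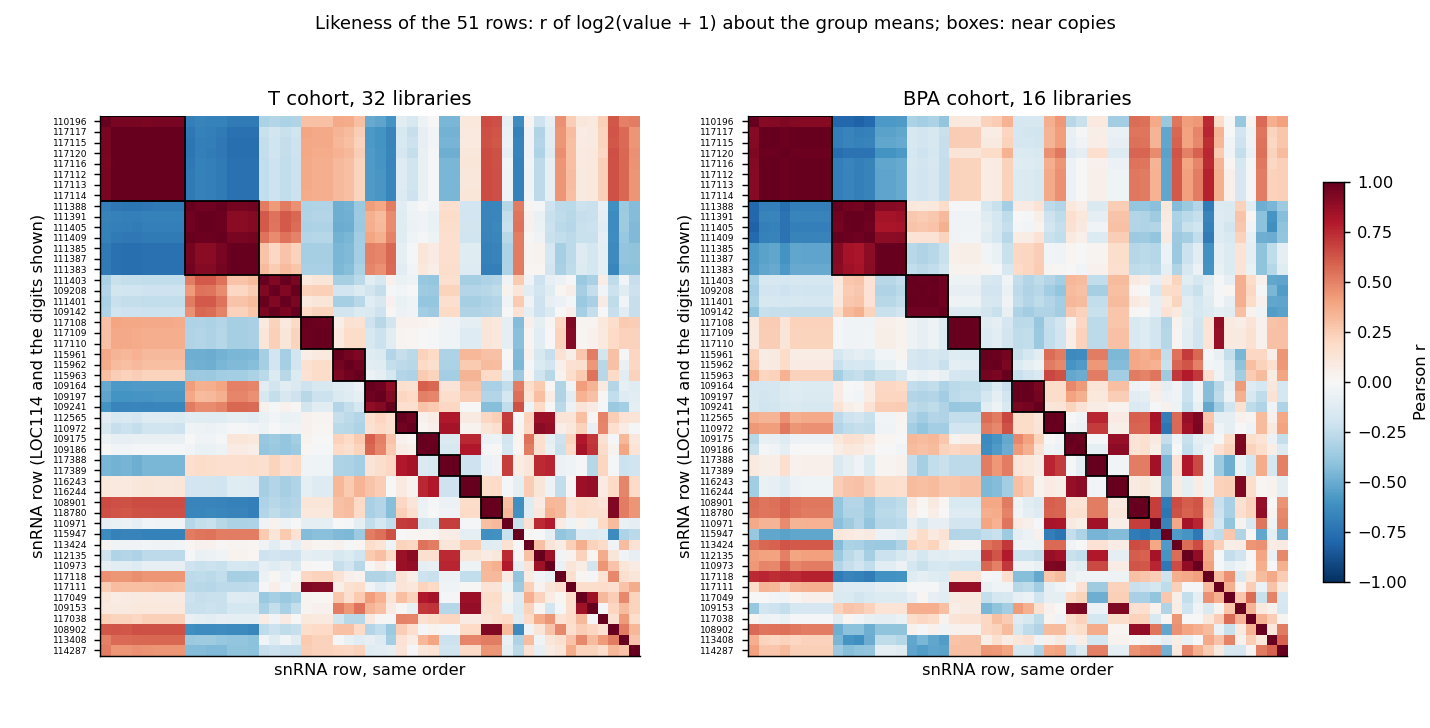
Pearson r between the 51 rows, of log2(value + 1) about the group means, in the 32 T cohort libraries (left) and the 16 BPA cohort libraries (right), with boxes around the groups of near copies. The groups were formed by r in both cohorts, so their blocks of high r appear in the same places. The 2 largest groups have negative r with each other.

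The 2 largest groups went opposite ways from library to library. LOC114117117 and LOC114111391 had r = -0.68 over the 32 T cohort libraries and r = -0.67 over the 16 BPA cohort libraries, about their group means. These rows also set much of the scale of each library, since 15 of the 26 snRNA rows with a read in every T cohort library were of these 2 groups, so part of a negative r can come from the scaling. The ratio of their reads needs no scaling, and its log2 is given below for each library.

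Spread between sheep was above counting error for the abundant rows and for some rows of few reads. The mean coefficient of variation within groups was more than 1.5 times that of counting in 27 of 51 rows and more than 2 times in 5. Among the 5 were LOC114109164, LOC114109197 and LOC114109241, with medians of 6, 5 and 4 reads in T cohort libraries. It was largest for LOC114115947 (0.96, against 0.60 from counting) and for LOC114117388 and LOC114117389 (0.84, against 0.61). For LOC114116243 and LOC114109153, near the limit of 2 reads, it lay below the value from counting (0.67 against 0.72 and 0.65 against 0.73).

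In a fit described at length after its result was seen, subcutaneous fat of the T cohort differed from the other 3 depots in these snRNAs. The fit of controls alone called 0 of 51 rows, and 7 of the 8 subcutaneous libraries were of the early set. With control and prenatal T sheep together (32 libraries of 8 sheep, on 1 common scale), 23 of 51 rows differed between subcutaneous fat and the mean of visceral, epicardial and perirenal fat, 13 higher and 10 lower (limma on log2(value + 1), Benjamini-Hochberg adjusted p under 0.05). All 8 rows of the LOC114110196 group were higher and all 7 of the LOC114111388 group were lower. Over all 56 snRNA features tested 44.6% were called, so the share among the 51 rows is that of the class, which they nearly make up. With 1 row per group of near copies, 8 of 24 patterns were called, 5 higher and 3 lower (9 of all 27 features tested so). The median log2 difference of the 51 rows was 0.08, and that of all features tested was -0.05.

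LOC114117117, of the 191-nucleotide group, had 52.9 to 155.4 rescaled reads in the 8 subcutaneous libraries of the T cohort (median 88.3). Its range was 45.5 to 73.5 in visceral (median 58.8), 30.0 to 64.7 in epicardial (53.7) and 19.8 to 61.6 in perirenal fat (49.3). The depots overlapped, although 7 of 8 sheep had their subcutaneous value above the mean of their other 3 depots. The log2 difference was 0.80 (SE 0.19, adjusted p = 0.000776 with limma), and over the 8 rows of the group it was 0.76 to 0.82. LOC114110196 itself was higher in 8 of 8 sheep.

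LOC114111391, of the second group, was the reverse, with 14.4 to 38.5 rescaled reads in subcutaneous fat (median 25.9). It had 17.2 to 139.2 in visceral (median 33.2), 29.5 to 94.9 in epicardial (43.5) and 29.6 to 96.3 in perirenal fat (44.6). The subcutaneous value was the lower in 8 of 8 sheep. Its log2 difference was -0.74 (SE 0.25, adjusted p = 0.0139 with limma), and those of the 7 rows lay between -0.83 and -0.74.

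Rows outside these groups were also called. LOC114114287, a row on its own of 150 nucleotides, had a median of 12.7 in subcutaneous fat (3.04 to 25.3) against 4.33, 4.36 and 5.10 in visceral, epicardial and perirenal fat, higher in 7 of 8 sheep (1.21, SE 0.31, adjusted p = 0.00177). LOC114117118, a 191-nucleotide row on its own, was higher by 1.04 (adjusted p = 0.0167), in 7 of 8 sheep. The pair LOC114108901 and LOC114118780 was higher by 0.82 and 0.85, and its neighbour LOC114108902 by 0.72 (adjusted p = 0.0212, 0.0212 and 0.0371, with limma). For LOC114108901 this was a median of 15.7 rescaled reads against 7.82, 9.22 and 8.70.

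Lower in subcutaneous fat were 2 rows of the trio, LOC114109197 (-1.51, SE 0.49, adjusted p = 0.0124) and LOC114109164 (-1.37, SE 0.49, adjusted p = 0.0212), and LOC114115947 (-1.32, SE 0.52, adjusted p = 0.0346). LOC114109241, the other row of the trio, had -0.91 (adjusted p = 0.132 with limma). LOC114109197 had a median of 2.22 in subcutaneous fat, with 0 to 5.49, against 3.81 (1.5 to 69.6), 5.39 (4.53 to 13.0) and 8.25 (0 to 41.9). LOC114115947 had a median of 0 in subcutaneous fat, with 0 to 2.90, and medians of 1.71, 2.35 and 3.81 in the other depots, so its values rested on few reads.

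This comparison of all T cohort sheep was an alternative to one of the controls alone, in which 0 of 51 rows were called (0.0% of 58 features; 6 rows with an unadjusted p under 0.05, smallest adjusted p = 0.217, with limma). In the 16 control libraries LOC114114287 had the smallest p (1.45, SE 0.53, adjusted p = 0.217; 0.83 to 1.75 without single sheep). With sheep as a block, the 32 libraries gave the same 23 calls. With a term for the library set 31 rows were called, 20 higher and 11 lower, and all 23 were among them. Without sheep 48 the count was 13, and without any other sheep 19 to 27. Each of the 23 kept its sign under each alternative run in which it was tested. Scaling did matter to the calls. On the scale as deposited 11 rows were called, 1 higher and 10 lower (15 of all 56 features). Scaled to equal reads of all 4 RNA classes 10 were called, all lower (12 of all 56 features). The median of all features tested moved from -0.05 to -0.29 and -0.30 on those scales.

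MicroRNA markers are given as ranges with no test. Every range below overlapped that of subcutaneous fat, except the epicardial range of the epithelial and mesothelial list. MIR143, of smooth muscle, made up 21070 to 73833 CPM of microRNA reads in subcutaneous and 37170 to 175334 in perirenal libraries of the T cohort. It made up 19377 to 153692 CPM in visceral and 13860 to 91238 in epicardial libraries. The epithelial and mesothelial list summed to 10.1 to 44.3 CPM in subcutaneous and 4.5 to 407.5 in visceral libraries. It summed to 19.7 to 200.1 CPM in perirenal libraries. In epicardial libraries it summed to 61.6 to 178.4 CPM, wholly above the subcutaneous range. MIR133 and MIR150 are set against 1 other depot each. MIR133, of striated muscle, had 131.6 to 880.6 CPM in subcutaneous and 372.0 to 25852 in epicardial libraries. MIR150, of leucocytes, had 1277 to 5313 CPM in subcutaneous and 2757 to 8144 in epicardial libraries. The part of cell makeup in the snRNA differences was not tested.

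The log2 ratio of LOC114117117 to LOC114111391 reads describes the balance of the 2 largest groups free of scaling. The 2 rows were called in opposite directions in these same T cohort libraries. A high ratio in subcutaneous fat there is thus no separate support for those calls. Subcutaneous controls of the T cohort had 1.21, 2.38, 2.04 and 0.51 (sheep 098, 131, 132 and 201), and subcutaneous prenatal T libraries had 2.22, 1.16, 2.44 and 2.21 (sheep 48, 185, 233 and 255). In the same order, visceral controls had 1.13, 1.48, -0.04 and 0.85, and visceral prenatal T libraries -0.29, 1.27, 2.0 and -1.61. Epicardial controls had 0.12, 0.47, 1.13 and 0.44, and epicardial prenatal T libraries -0.08, -0.13, 0.42 and -1.66. Subcutaneous fat had 1.16 or more in 7 of 8 libraries, a level that visceral fat also reached in sheep 131, 185 and 233. Sheep 255 had -1.61 in visceral and -1.66 in epicardial fat but 2.21 in subcutaneous fat.

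Perirenal controls had 0.61, 0.97, -2.28 and 0.09, and perirenal prenatal T libraries -0.25, -0.09, -0.07 and 0.22. The lowest of all 48 libraries was the perirenal control of sheep 132, at 93 reads of LOC114117117 and 452 of LOC114111391. Subcutaneous fat exceeded the mean of the other 3 depots in 8 of 8 sheep, by 1.58 ± 1.08 (mean ± SD, n = 8 sheep; exact sign-flip permutation p = 0.00781, two-sided, the smallest that 8 sheep allow). Adjusted over the 12 such ratio tests this was 0.0938, so it failed the correction. In sheep 201, whose subcutaneous library was of the later set, the excess was 0.05. The ratio was chosen after the values had been seen, so its p-value is no independent test.

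The library set bears on this ratio. Within the early set, subcutaneous libraries had a mean log2 ratio of 1.95 (1.16 to 2.44, 7 libraries), against -0.06 in 3 visceral, -0.90 in 2 epicardial and -0.20 in 7 perirenal libraries. In the later set, the 1 subcutaneous library had 0.51, below the mean of 5 visceral libraries (0.99) and close to those of 6 epicardial (0.42) and 1 perirenal (0.61). The later set thus holds too few subcutaneous libraries of the T cohort to compare.

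In the BPA cohort, the ratio did not separate the depots. Subcutaneous controls had 1.45, 1.42, 0.45 and 0.45 (sheep 902, 908, 924 and 928) and visceral controls 0.23, 0.73, 1.0 and 1.05. Subcutaneous BPA libraries had 1.42, 0.88, 0.52 and 1.22 (sheep 910, 918, 977 and 984) and visceral BPA libraries 1.23, 0.60, 1.42 and 1.79. Visceral minus subcutaneous was 0.03 ± 0.74 (SD, n = 8 sheep, higher in 4 of 8; exact sign-flip permutation p = 0.930, adjusted p = 0.977). In the T cohort the same difference was -1.17 ± 1.48, with 2 of 8 sheep higher (exact sign-flip permutation p = 0.0625, adjusted p = 0.188). Whether the 2 cohorts differ in this was not tested.

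**Figure D3:**
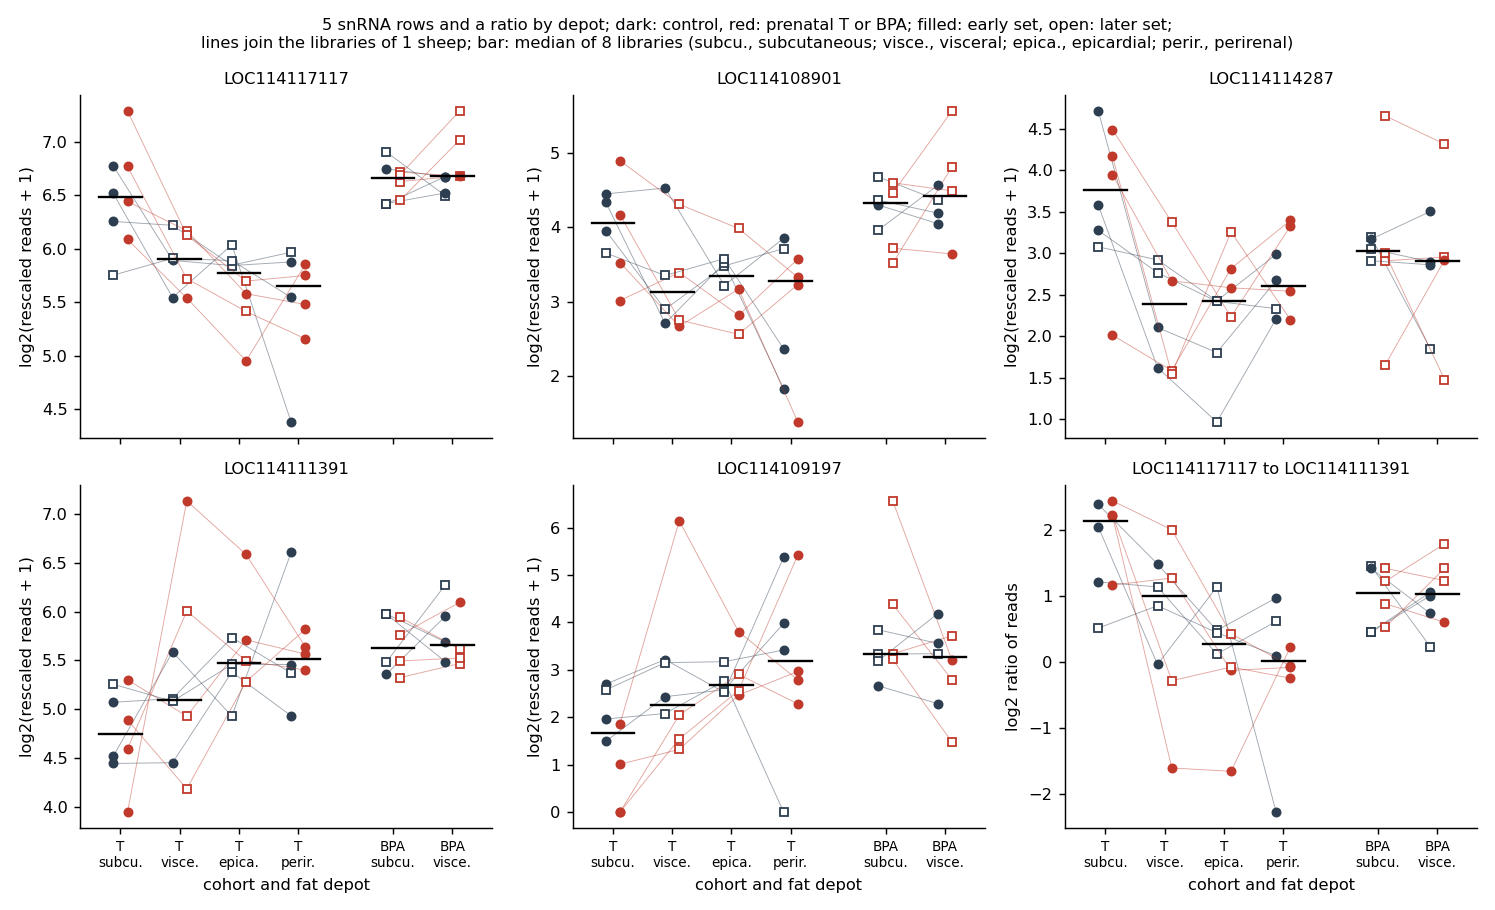
Rescaled reads of 5 snRNA rows as log2(value + 1), and the log2 ratio of LOC114117117 to LOC114111391 reads, by cohort and fat depot, 1 point per library, with lines joining the libraries of 1 sheep and a bar at the median of 8 libraries. In the T cohort the medians of LOC114117117, LOC114108901, LOC114114287 and the ratio are highest in subcutaneous fat and those of LOC114111391 and LOC114109197 lowest, and in the BPA cohort the 2 depots overlap.

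The fits of the other depots called few rows or none. With control and prenatal T sheep together, LOC114116243 and LOC114116244, 1 measurement on 2 rows, were lower in visceral fat (3.57% of 56 features called), by a log2 difference of -1.08 (adjusted p = 0.0296 with limma; -1.26 to -0.91 without single sheep). The call was lost without sheep 098, 132, 201, 48, 185 or 255, each left out in turn, and with a term for the library set. Epicardial fat gave 0 called rows (0.0% of 56 features; 6 rows with an unadjusted p under 0.05, smallest adjusted p = 0.240) and perirenal fat 0 (0.0%; 11 rows, 0.0753), both with limma. The rows of smallest p were LOC114111403 and LOC114111401 in epicardial fat (0.79 to 1.16 and 0.78 to 1.15 without single sheep). In perirenal fat they were LOC114117120 and LOC114117115, of the largest group (-0.65 to -0.37 and -0.63 to -0.35). Without single sheep, 0 to 13 rows were called in perirenal fat. In controls alone the fits of visceral, epicardial and perirenal fat against the other depots called 0 of 51 rows each (0.0% of 58 features; 2, 4 and 5 rows with an unadjusted p under 0.05, with limma). The rows of smallest p there were LOC114116243 and LOC114116244 in visceral fat (-1.26, adjusted p = 0.602; -1.38 to -0.80 without single sheep), LOC114109208 and LOC114111403 in epicardial fat (1.40 and 1.3, adjusted p = 0.295 for both) and LOC114115947 and LOC114111385 in perirenal fat (1.52 and 0.61, adjusted p = 0.224 for both).

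LOC114109208, of the 4-row group, had 15.2, 9.12, 10.5 and 13.8 rescaled reads in epicardial controls (mean 12.2 ± 2.85, SD, n = 4). It had 0 to 13.8 in the control libraries of the other depots, so the depots overlapped. Visceral against subcutaneous fat in controls gave 0 called rows in the T cohort (0.0% of 54 features; 7 rows with an unadjusted p under 0.05, limma), and the depots did not overlap for 1 row, LOC114109153 (-0.63; 7.41% of features did not overlap). LOC114114287 (-1.24) and LOC114117108 (-1.31) had the smallest p there (adjusted p = 0.228 for both). Without sheep 131 these were -0.66 and -0.17 (adjusted p = 0.440 and 0.993).

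In controls of the BPA cohort the 4 rows of the LOC114111403 group stood nearest to a call. LOC114109208 had 6.52, 6.47, 5.38 and 3.13 rescaled reads in visceral fat and 12.7, 8.88, 15.8 and 16.3 in subcutaneous fat (sheep 902, 908, 924 and 928). The groups did not overlap. The log2 difference was -1.12 (SE 0.35, adjusted p = 0.0566 with limma), and over the 4 rows -1.22 to -1.11. In all 0 of 47 rows were called (3.7% of 54 features; 8 rows with an unadjusted p under 0.05), and 8 rows, against 22.2% of the 54 features, did not overlap between depots. With treated sheep added, 0 of 50 rows were called (0.0% of 57; 7 with an unadjusted p under 0.05, smallest adjusted p = 0.269, limma). LOC114109208 and LOC114109142 had the smallest p (-1.03 to -0.69 and -1.05 to -0.62 without single sheep). The group's values then overlapped. LOC114109208 had 3.13 to 10.8 rescaled reads in visceral fat and 3.31 to 20.1 in subcutaneous fat, lowest in BPA sheep 984.

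Prenatal T against control gave 1 called row over the 4 depots. In subcutaneous fat 0 of 45 rows tested were called (0.0% of 52 features; 6 rows with an unadjusted p under 0.05, limma). In visceral fat it was 0 of 45 (0.0% of 50; 0 rows) and in perirenal fat 0 of 48 (0.0% of 56; 0 rows). The median log2 difference of the rows tested was -0.08, -0.05 and -0.06, against -0.08, -0.05 and -0.14 for all features tested. The smallest adjusted p among the rows was 0.195, 0.986 and 0.972. Their differences lay within -1.59 to 0.65, -0.56 to 0.62 and -1.02 to 1.23 in these depots.

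In subcutaneous fat the rows of smallest p were LOC114109197 (-1.19, SE 0.47, adjusted p = 0.195) and LOC114117108 (-1.59, SE 0.65, adjusted p = 0.195). LOC114117108 had 4.22, 14.3, 5.75 and 5.09 normalised reads in controls and 1.37, 1.77, 5.11 and 0 in prenatal T libraries. The groups overlapped in 1 library, sheep 233, of the prenatal T group. In visceral fat LOC114115961 and LOC114115962 had 0.62 (adjusted p = 0.986), and in perirenal fat LOC114117109 and LOC114117110 had -0.97 (adjusted p = 0.972), with limma. Without single sheep these ran from 0.41 to 0.90 and from -1.23 to -0.63, none past the test.

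In epicardial fat, 1 of 48 rows tested was called, LOC114115947, which was higher with prenatal T (7.55% of 53 features were called, the other 3 being rows left out by the rule). Controls had 0.66, 0, 2.74 and 0 normalised reads and prenatal T libraries had 8.16, 6.54, 1.89 and 8.63 (sheep order as above). These were 0 to 3 reads against 2 to 10 reads, and 1 prenatal T library, sheep 233, lay within the control range. The difference was 2.07 log2 units (SE 0.70, adjusted p = 0.0438 with limma). The call was lost with a pseudocount of 0.5 (adjusted p = 0.0832), with a term for the library set (1.70, adjusted p = 0.602) and without any 1 of the 8 sheep (adjusted p from 0.0574 to 0.290).

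All 4 epicardial controls were of the later set, and 2 of the 4 prenatal T libraries of the early set. Among the markers, MIR150 (leucocytes) ranged from 6701 to 8144 CPM in epicardial controls and from 2757 to 5410 in prenatal T libraries, without overlap. MIR133 (striated muscle) ranged from 1295 to 6332 and from 372.0 to 25852, and MIR143 (smooth muscle) from 13860 to 26496 and from 23874 to 91238. Their part in the difference was not tested.

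Some other rows of epicardial fat did not overlap between groups, 4 of the 48 (9.43% of the 53 features did not overlap). LOC114111383 had 35.0, 35.7, 18.2 and 27.9 in controls and 42.1, 45.8, 39.6 and 76.0 in prenatal T libraries, all higher (0.78, SE 0.30, adjusted p = 0.0863 with limma). LOC114111385 and LOC114111387, its near copies, had 0.77 (adjusted p = 0.0863). LOC114117120 was lower in all 4 prenatal T libraries (-0.46, adjusted p = 0.407). The log2 ratio of LOC114117117 to LOC114111391 differed by -0.90 in epicardial fat (exact permutation p = 0.0571, adjusted p = 0.188; 4 against 4 sheep cannot go below 0.0286). The median log2 difference of the 48 rows was -0.34, and -0.29 for all 53 features. Differences of the prenatal T effect between the 4 depots gave 0 called rows of 51 (0.0% of 56 features; 0 rows with an unadjusted p under 0.05, smallest adjusted p = 0.999, limma). LOC114115947 and LOC114111383 had the smallest p in that test.

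**Figure D4:**
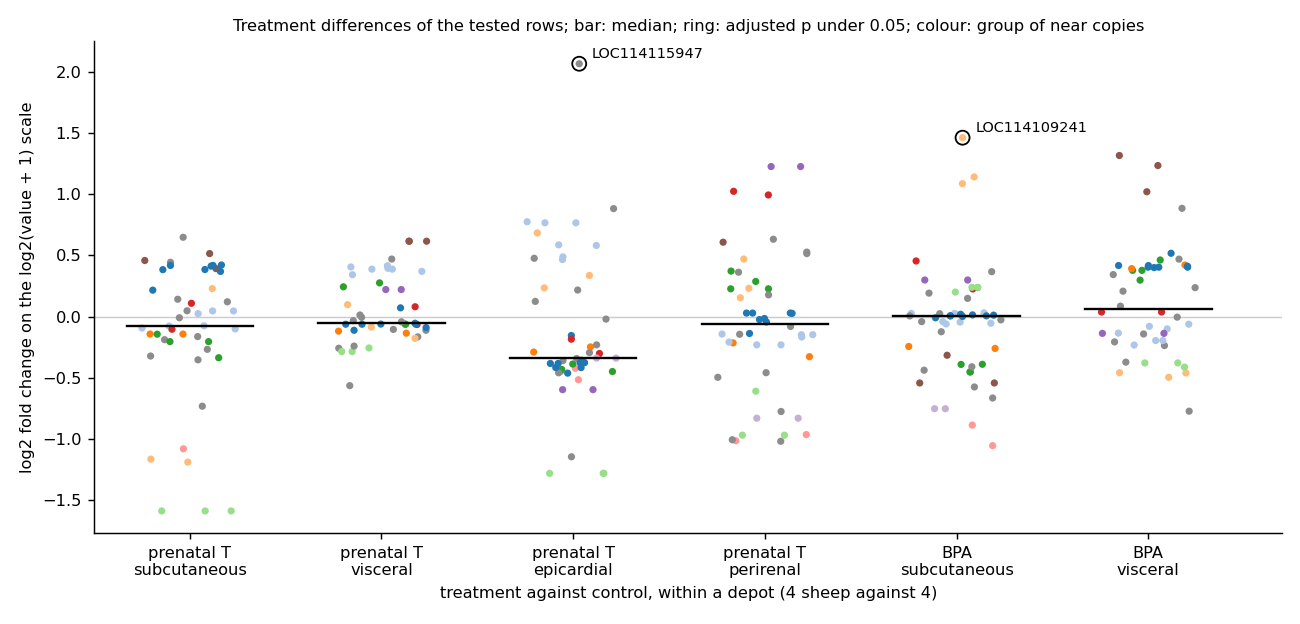
Log2 differences of the tested snRNA rows between treated and control sheep within each depot, 1 point per row, coloured by group of near copies, with a bar at the median and rings around rows with an adjusted p under 0.05. Rows of 1 colour lie together, and 2 rows are ringed, LOC114115947 in epicardial fat with prenatal T and LOC114109241 in subcutaneous fat with BPA.

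BPA gave 1 called row of 51 in subcutaneous fat, LOC114109241 of the trio, which was higher (5.0% of 60 features were called, the others being rows left out by the rule). Controls had 7.23, 6.35, 8.22 and 9.81 normalised reads and BPA libraries had 9.74, 113.3, 9.51 and 26 (sheep 910, 918, 977 and 984). Sheep 918 was far above the rest, 984 was next, and the other 2 BPA libraries lay at the top of the control range. The log2 difference was 1.46 (SE 0.47, adjusted p = 0.0388 with limma). The groups of 1 other row, LOC114109186, did not overlap (-1.06, adjusted p = 0.995; 1.67% of features did not overlap). Without sheep 918 the difference of LOC114109241 was 0.72 (adjusted p = 0.9997), the call was also lost without sheep 984 or any 1 control (adjusted p from 0.0544 to 0.176), and the difference was 1.38 with a term for the library set (adjusted p = 0.242). All 4 BPA libraries and 3 of 4 controls were of the later set, and within that set it was 1.38 (adjusted p = 0.167). MIR150 ranged from 3532 to 11702 CPM in these controls and from 2849 to 3906 in BPA libraries, and its part was not tested.

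The near copies of LOC114109241 had similar values, but no call. LOC114109164 had 12.4, 8.89, 15.7 and 11.8 in controls and 13.0, 116.4, 13.4 and 23.4 in BPA libraries (1.09, SE 0.42, adjusted p = 0.113), and LOC114109197 differed by 1.14 (SE 0.44, adjusted p = 0.113). In visceral fat of the same sheep the trio had -0.50, -0.46 and -0.46 (adjusted p = 0.750, 0.774 and 0.785 for LOC114109241, LOC114109164 and LOC114109197, with limma). For LOC114109241 the BPA effect differed between depots by -1.96 (visceral minus subcutaneous, SE 0.72, adjusted p = 0.124), and 0 of 51 rows were called for this difference (3.45% of 58 features; 3 rows with an unadjusted p under 0.05). For LOC114109164 it was -1.55 (SE 0.67, adjusted p = 0.269). Both values rested in part on single sheep. Without BPA sheep 918 they were -1.28 and -0.93 (adjusted p = 0.298 and 0.427), and without BPA sheep 910 they were -2.62 and -2.20 and passed the test (adjusted p = 0.0171 and 0.0406, with limma).

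In visceral fat BPA gave 0 called rows of 46 (3.77% of 53 features; 2 rows with an unadjusted p under 0.05, limma). LOC114110196 had 72.3, 76.9, 91.4 and 99.3 normalised reads in controls and 109.5, 91.8, 140.1 and 152.6 in BPA libraries. Sheep 918 lay within the control range and the other 3 above it (0.52, SE 0.23, adjusted p = 0.315). LOC114113408, a row on its own, had 4.12, 6.41, 7.16 and 12.4 in controls and 17.1, 16.6, 9.34 and 13.7 in BPA libraries (0.89, SE 0.41, adjusted p = 0.315), where sheep 977 lay within the control range. Calls here depended on the scale and on 1 sheep. Scaled to equal snRNA reads, the 8 rows of the LOC114110196 group were called, all higher (10 of all 53 features were called). Without BPA sheep 918, 14 rows were called, among them the same 8. Scaled to equal reads of all 4 RNA classes, LOC114110196 turned to -0.40 (adjusted p = 0.417). Controls were early in 3 of 4 libraries and BPA libraries later in 3 of 4. The snRNA share of reads was 0.291% to 0.702% in controls and 0.155% to 0.251% in BPA libraries, and the 51 rows made up 57.6% to 65.5% and 73.9% to 80.5% of the snRNA reads. MIR150 ranged from 4407 to 5139 CPM in controls and from 2543 to 3933 in BPA libraries. None of these 3 measures overlapped between the groups, and their part was not tested. The medians of the rows tested were 0.00 in subcutaneous fat (0.01 for all features) and 0.06 in visceral fat (0.04).

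The trio and LOC114115947 had rare high libraries in several groups. LOC114109164 reached 53.9 normalised reads in the perirenal control of sheep 132, 59.1 in perirenal fat of prenatal T sheep 48, 33.9 in visceral fat of prenatal T sheep 255 and 116.4 in subcutaneous fat of BPA sheep 918. LOC114115947 was also high in 2 of these, with 27.1 in the perirenal control of sheep 132 and 41.8 in visceral fat of sheep 255. In subcutaneous fat of BPA sheep 918 it had 4.78, within the range of the other BPA libraries of that depot (3.36 to 9.74).

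**Figure D5:**
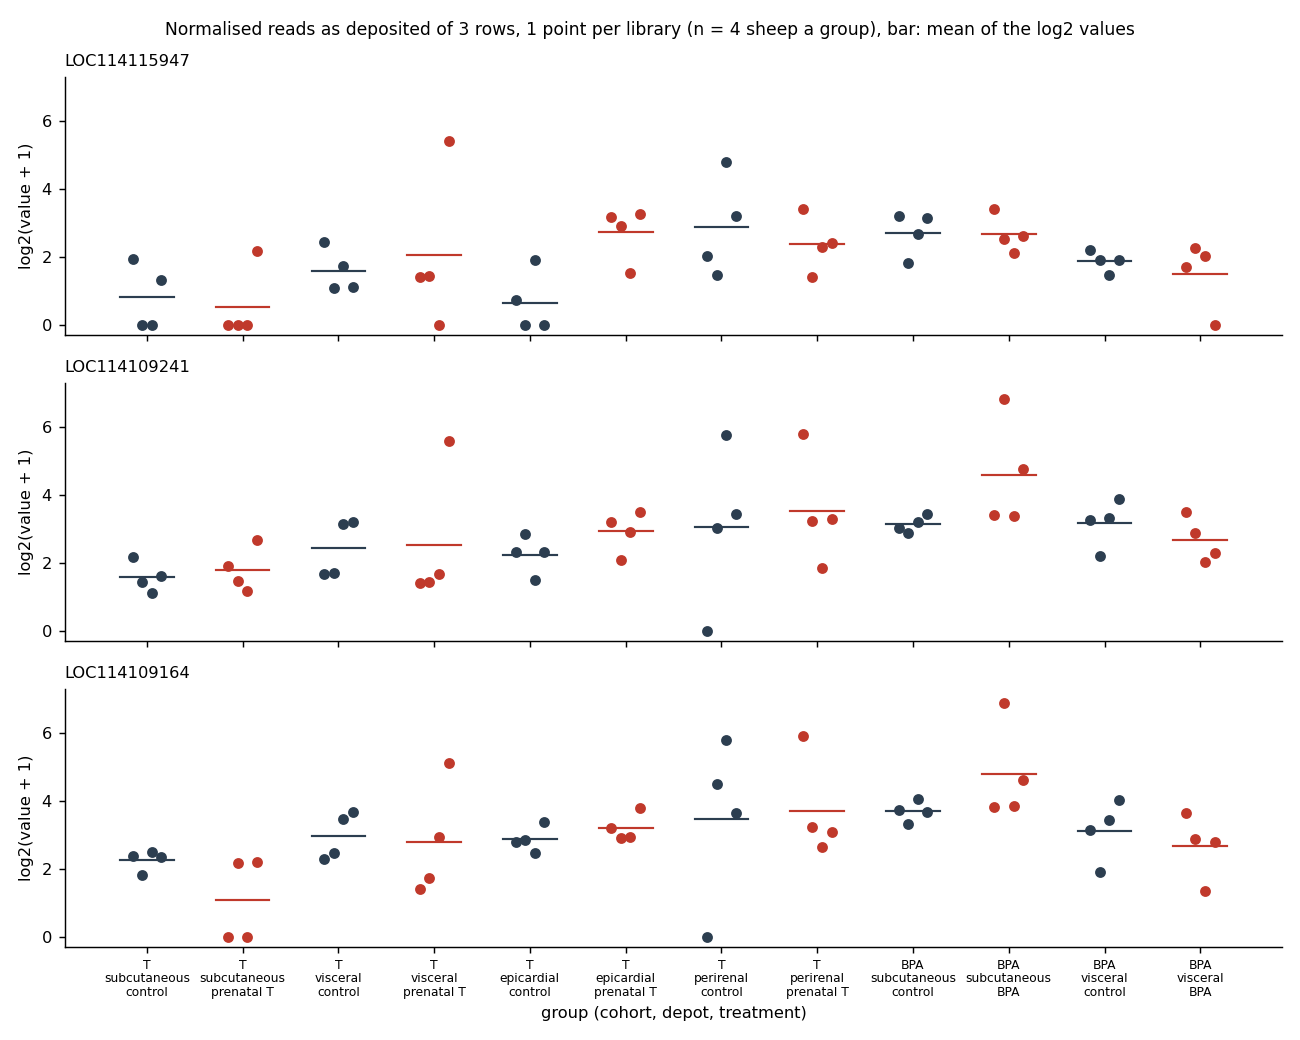
Normalised reads as deposited, as log2(value + 1), of LOC114115947, LOC114109241 and LOC114109164 in the 12 groups, 1 point per library (4 sheep a group) with a bar at the mean of the log2 values, controls dark and treated groups red. Single high libraries stand out in the visceral prenatal T group, both perirenal groups and the subcutaneous BPA group.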

How the data were processed

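Small RNA libraries of 48 fat samples were analysed. Each deposited table (4 RNA classes, 2 cohorts) holds a signal of 0 or more, made by the authors from the reads of a feature and a factor for the library, as the values show. All 63507 values above 0 were whole multiples of 1 read (tolerance 1e-04), and the factors equalled median-of-ratios factors computed per depot and class, so depots were not on a common scale. Per the submitters' processing notes, the tools included STAR 2.6.0c, featureCounts 1.6.1 and cutadapt 3.2. Genome build and counting options: not given in the sources used here.

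For depot comparisons, the libraries compared were put on 1 scale by their median ratio, and treatment comparisons used the deposited scale. A mean of at least 2 over these libraries was required of a feature, and features were fitted with limma 3.58.1 (R 4.3.3, trend) on log2(value + 1), which understates changes of low rows, with adjustment over all snRNA features tested. The script was tested on simulated data.

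The members and lists were chosen with earlier results of these data known. Named are rows called in a comparison, the 2 of smallest p in one without a call, the 10 of highest T cohort mean, near copies, the 3 of highest and of lowest spread, the 3 nearest the limit on each side, and the 3 most like the first row. The fit of control and treated sheep together was an alternative, described at length after its result was seen. The ratio of 2 rows, the fit with 1 row per near-copy group and fits within a set were chosen after seeing the data. The labels give the depots of 1 sheep the same sheep number, which pairs them. Between libraries of 1 sheep the median r of the rows' deviations was -0.03 in the T cohort (18 of 48 pairs over 0.1) and 0.15 in the BPA cohort (6 of 8). Each library of a group came from a different sheep, so replicates are animals.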

Additional observations from a re-analysis of the deposited data

Results flagged for a closer look

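A total of 84 groups of 4 libraries were examined for a library apart from the other 3 (Dixon's test at 95%), over the log2 ratio, the snRNA share of reads and 5 rows. Of these, 9 passed. The nominal rate of 1 in 20 groups holds for normally distributed values. Normalised reads were tested here without a log, so the 9 cannot be compared with that rate. The rows LOC114109164 and LOC114109241 are near copies, so their results are not separate.

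In subcutaneous fat of BPA sheep 918, LOC114109164 was at 116.4 normalised reads (others 13.0 to 23.4) and LOC114109241 at 113.3 (others 9.51 to 26). In perirenal fat of prenatal T sheep 48, they were at 59.1 (others 5.2 to 8.34) and 54.3 (others 2.6 to 8.73). In visceral fat of prenatal T sheep 255, they were at 33.9 (others 1.65 to 6.64) and 47 (others 1.65 to 2.21), and LOC114115947 was at 41.8 (others 0 to 1.74). In subcutaneous fat of the same sheep LOC114115947 was at 3.56, with the other 3 prenatal T libraries at 0. With the other 3 at 0, any value above 0 passes this test. The factor of that library was 0.562, so 3.56 rested on few reads. The visceral control of BPA cohort sheep 902 had 0.702% of its reads on snRNAs, against 0.291% to 0.358% in the other 3.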

How the results depend on the processing

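The labels pair depots by sheep. With sheep as a block, the number of rows called stayed at 23 for subcutaneous fat with control and treated sheep together, at 2 for visceral fat, and at 0 in each other depot comparison and, with sheep as a random block, in both tests of a treatment effect between depots.

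For prenatal T in epicardial fat, 1 row was called, and 0 with a pseudocount of 0.5, equal snRNA reads, equal reads of all 4 classes or the set term. It was also 0 with 1 row per near-copy group, within the later set, and without each sheep (0 to 0). A filter at a mean of 5 left the called row out (group means of 0.85 and 6.30). The 0 calls under that filter are thus no second test of the row. For BPA in subcutaneous fat, 1 became 0 with a filter at 5, no filter, equal snRNA reads or equal reads of all 4 classes. It also became 0 with the set term or within the later set, and 0 to 3 without single sheep. With 1 row per near-copy group LOC114109164 stood for the trio. The called row LOC114109241 was not tested there, so the 0 calls of that fit do not bear on it. For BPA in visceral fat, 0 became 8 with equal snRNA reads (10 of all 53 features) and 0 to 14 without single sheep. For the BPA effect between depots, 0 became 1 with equal snRNA reads (3 of all 58 features). It became 3 with equal reads of all classes (8 of 58), and 0 to 3 without single sheep.

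In controls, subcutaneous fat gave 7 calls on the deposited scale (9 of all 58 features) and 23 with treated sheep (25 of 56). Visceral fat gave 2 with treated sheep (2 of 56), and perirenal fat 8 on the deposited scale (12 of 58). In the T cohort, visceral against subcutaneous fat gave 5 calls with equal reads of all classes (10 of 54). It gave 1 with treated sheep (6 of 50) and 0 to 3 without single sheep. In the BPA cohort it gave 3 with a filter at 5 (6 of 36) and 4 with equal snRNA reads (6 of 54). It gave 3 with the set term (7 of 54) and 1 with 1 row per near-copy group (3 of 27). On the deposited scale it gave 20 (22 of 54). Without single sheep it gave 0 to 4.

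With control and treated sheep together, the 23 calls of subcutaneous fat became 9 with no filter (all higher, 11 of all 333 features). They became 10 with equal reads of all classes (12 of 56) and 11 on the deposited scale (15 of 56). With 1 row per near-copy group they became 8 of 24 patterns (9 of 27 features), and without single sheep 13 to 27. The 2 of visceral fat became 0 with no filter, equal reads of all classes, the set term with or without the block, or the deposited scale. Without single sheep they became 0 to 3. A filter at 5 left both rows out (T cohort mean of 2.46 as deposited), so it did not test them again. The 0 of perirenal fat became 7 with a filter at 5 (7 of all 35 features) and 12 on the deposited scale (14 of 56). Without single sheep it became 0 to 13 (13 without sheep 255). The 0 of visceral against subcutaneous fat in the BPA cohort became 18 on the deposited scale (19 of 57).

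Near-zero differences of the log2 ratio changed sign: visceral fat against the other T cohort depots (0.01) was -0.0496 with LOC114110196 and LOC114111388, -0.0671 with summed reads of both groups, and -0.14 to 0.28 without single sheep. Visceral minus subcutaneous fat of the BPA cohort (0.03) was -0.0492, -0.0814 and -0.0934 to 0.21. Without single sheep, prenatal T minus control ran from -1.07 to 0.14 in visceral and -0.60 to 0.48 in perirenal fat, and BPA minus control from -0.10 to 0.24 in subcutaneous fat. LOC114110196 with BPA in visceral fat was -0.40 with equal reads of all classes. The causes were not tested.

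A limit of 5 in place of 2 left 29 rows, of 1 left 57, and rescaled values 50. Near-copy groups numbered 10 at r of 0.8 and 13 at 0.95. Count-based tests with edgeR and DESeq2 were planned and not run. Fits within 1 library set were made where each arm kept 2 libraries. Depth limits the rows of few reads: counting alone gave LOC114109153 a coefficient of variation of 0.73. The near-copy, within-set, block with set term and other-ratio alternatives were chosen after seeing the data, as were all alternatives of the fits with control and treated sheep together.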
